A study of Mus musculus with 18 samples.

Results

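The genes described here are the clustered replication-dependent histone genes of the mouse, taken as every gene whose symbol begins with Hist1h, Hist2h, Hist3h or Hist4h, which held for 68 of 23329 genes in the count tables. They comprise 6 genes of the linker histone H1, 18 of H2A, 19 of H2B, 12 of H3 and 13 of H4. The largest cluster, Hist1, gave 54 of them on chromosome 13, and the others were 10 Hist2 genes on chromosome 3, 3 Hist3 genes on chromosome 11 and the single Hist4h4 on chromosome 6. The symbols bound the list, and one of its entries, Hist3h2bb-ps, is annotated without a stop codon.

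RNA came from FDH cells, immortalised fetal liver cells of BALB/c mice taken at E14.5, at passages 10 to 12. All groups share the bc-/- bIL-3-/- background, in which both signalling beta chains of the mouse IL-3 receptor are missing, and all were transduced to carry bc. The P248L line also carried IL3Ra with the change P248L, and the wild-type (WT) line carried unchanged IL3Ra, the IL-3-binding chain. Each line was sampled untreated, in medium with doxycycline and 100 ng/ml mouse SCF, and after 2 and 5 days in 100 ng/ml IL-3. The IL-3 medium as described holds neither doxycycline nor SCF, so a response covers the gain of one factor and the loss of the others. The labels name no separate lines or clones per receptor, so receptor and line cannot be told apart, and the 6 groups held 3 libraries each.

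Replication-dependent histone genes supply the nucleosomes assembled on new DNA and are transcribed mainly in S phase, under the coactivator NPAT and cyclin E with CDK2. Their messages usually end not in a poly(A) tail but in a conserved stem-loop, which the stem-loop binding protein SLBP holds and which the U7 snRNP helps to cut. Some of the genes can also be cut further downstream and given a poly(A) tail, a form known from differentiating and resting cells. Library preparations that select poly(A) RNA therefore recover the stem-loop form poorly. The labels state total RNA and a standard Illumina preparation, and whether RNA was selected for poly(A) or depleted of ribosomal RNA is not stated in the sources used here.

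The stem-loop was found within 100 bases after the stop codon, with up to 2 mismatches, in 41 of the 68 genes in GENCODE M21 transcripts. Genes with fewer than 16 annotated bases there, such as Hist1h1b with 0, could not match the stem-loop. Among 44332 protein-coding transcripts, 2 of other genes held it, or 0.0045%. The following sites on GRCm38 are shown because they come from genes that went opposite ways at day 5. Capitals mark the 16 bases of the stem-loop. The first 4 genes rose in the wild-type line and the next 4 fell.
Hist1h1c (chromosome 13, plus strand): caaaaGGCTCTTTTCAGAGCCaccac
Hist1h2bg (chromosome 13, plus strand): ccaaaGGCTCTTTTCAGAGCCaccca
Hist3h2a (chromosome 11, plus strand): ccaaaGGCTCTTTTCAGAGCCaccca
Hist2h3c1 (chromosome 3, plus strand): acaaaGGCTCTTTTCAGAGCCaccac
Hist1h2ag (chromosome 13, minus strand): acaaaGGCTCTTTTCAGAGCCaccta
Hist1h2bj (chromosome 13, plus strand): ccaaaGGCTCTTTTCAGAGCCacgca
Hist1h3c (chromosome 13, minus strand): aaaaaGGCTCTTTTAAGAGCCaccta
Hist1h4d (chromosome 13, plus strand): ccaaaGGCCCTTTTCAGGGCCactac
The stem-loop letters of Hist1h1c, Hist1h2bg, Hist3h2a and Hist2h3c1, which rose, are the same as those of Hist1h2ag and Hist1h2bj, which fell. A match is a description of the annotated transcript and does not show which 3′ end was made in these cells.

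Levels are CPM, counts scaled to the TMM-adjusted number of reads in genes, with the SD over n = 3 libraries, and changes are log2 fold changes with their SE from edgeR's quasi-likelihood test. A gene is said to rise, fall or differ at a Benjamini-Hochberg adjusted p under 0.05 over the 11942 genes tested. No label gives the origin of the replicates as separate cultures, and p-values therefore cover no more than the spread among these samples, which may be technical. In bulk RNA, fewer cells in S phase and less RNA per cell cannot be told apart. Libraries held 13844612 to 27181962 reads in genes, of which the 68 genes held 970 to 6528 reads. Of the 68 genes, 47 passed the filter on low counts. Of the other 21, 7 had no read in any library and 14 had some, the highest count in a library being 45. Some of the 47, such as Hist1h2ad and Hist1h4a, passed only through the untreated P248L libraries. For these the filter itself favoured a high level there and a fall from it in P248L. A median of 6.93% (0 to 61.8%) of the 50-base windows of genes without a read was found in no other transcript, against 56.2% (3.72 to 100%) for genes with reads, and reads shared by near-identical copies may have been lost to all of them. Markers of progenitor and myeloid cells, 9 genes, summed to 3723 to 42923 CPM over the libraries. The hepatocyte genes Alb and Ttr had no read, nor had the globin genes Hba-a1, Hba-a2 and Hbb-b1. Erythroid markers summed to 0.185 to 6.94 CPM, lymphoid ones to at most 0.287 CPM, megakaryocyte ones to 7.72 to 31.4 CPM and stromal and endothelial ones to 67.4 to 173 CPM. One library, P248L day 2 library 3, held 37741 CPM of the ribosomal precursor Rn45s, against 766 to 3199 CPM in the other 17. It and P248L untreated library 1 differed most from their replicates, and without both the number of called histone genes at day 5 was 44 in P248L (43 with them) and 38 in the wild-type line (37), and between untreated lines 35 (33). At day 2 it was 33 in P248L (33 with them), 24 between the lines (20) and 2 for the difference of responses (4). Of the 35 genes described by name, Hist1h3c and Hist1h4a then lost their P248L day 2 calls, and Hist1h1a, Hist1h1d, Hist2h2ac and Hist3h2a those between the lines at day 2.

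Summed over all 68 genes, the level in the P248L line was 205 ± 34.1 CPM untreated, 75.8 ± 9.49 CPM at day 2 and 161 ± 40.4 CPM at day 5. In the wild-type line it was 68.9 ± 15.3 CPM untreated, 56.2 ± 5.79 CPM at day 2 and 357 ± 48.3 CPM at day 5. The sums hide a change of composition. Hist1h1c alone held 48.4% of the summed level in P248L cells at day 5 and 59.8% in wild-type cells at day 5, against 9.01% in untreated wild-type cells. In untreated P248L cells Hist1h1c held a mean of 6.86 CPM of the 205 CPM. Without Hist1h1c, the sum in P248L was 198 ± 32.9 CPM untreated and 83.0 ± 8.51 CPM at day 5. In wild-type cells it was 62.7 ± 13.9 CPM untreated and 144 ± 11.9 CPM at day 5. H1 and H2B sums were highest at day 5 in the wild-type line, at 219 ± 43.5 and 97.1 ± 9.85 CPM. Of these, Hist1h1c alone held a mean of 214 CPM and Hist1h2bc alone 77.9 CPM. Of 13 tested H2B genes, 4 rose and 7 fell there. H2A, H3 and H4 sums were highest in untreated P248L cells, at 59.6 ± 7.23, 24.0 ± 7.0 and 41.0 ± 10.6 CPM, against 20.0 ± 3.83, 5.49 ± 1.47 and 9.45 ± 3.24 CPM in untreated wild-type cells.

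**Figure D1:**
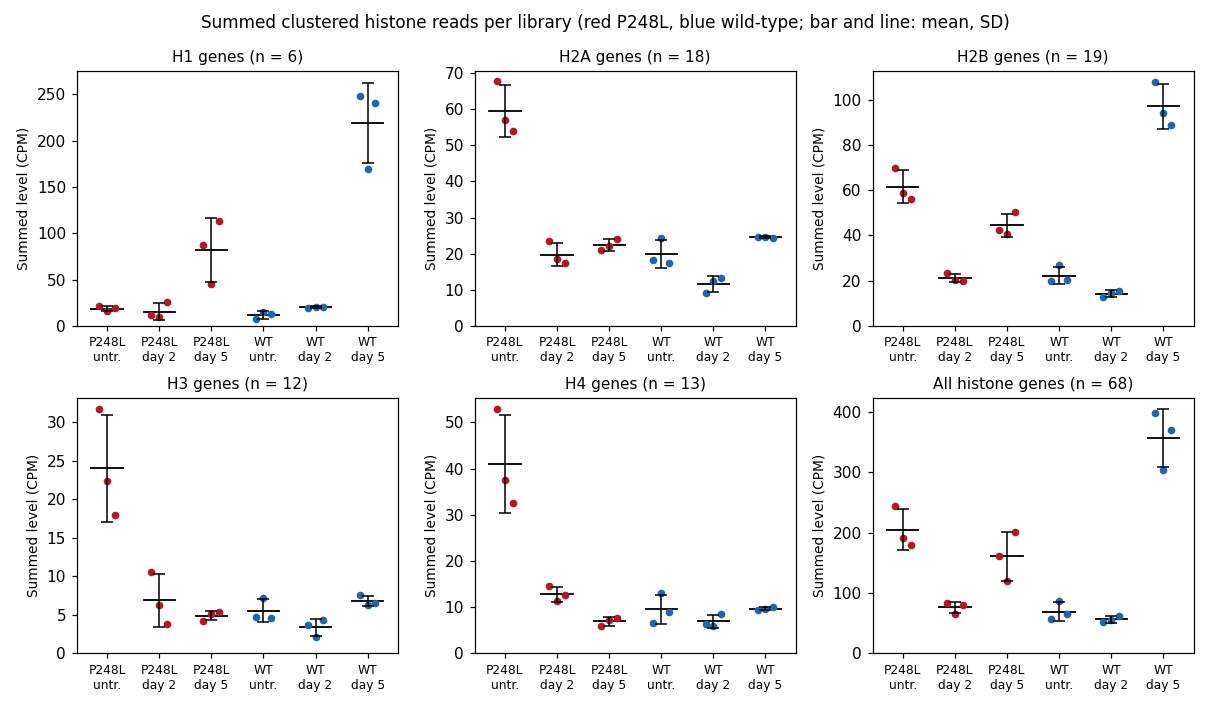
Summed level (CPM, y axis from 0) of the histone genes of each type and of all 68, by group on the x axis, with P248L groups in red left of wild-type groups in blue; points are libraries, and lines and bars are the mean and SD of 3. The H1 and H2B panels peak at wild-type day 5, mostly from Hist1h1c and Hist1h2bc, and the H2A, H3 and H4 panels in untreated P248L cells.

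Per kilobase of annotated transcript, the order of the genes changed between groups. In untreated P248L cells Hist1h2ag led with a mean of 35.4 CPM per kilobase, followed by Hist1h4b with 34.9 and Hist1h2bk with 26.7. In untreated wild-type cells Hist1h2ag also led, with 7.82 CPM per kilobase, followed by Hist1h2bk with 5.39. At day 5 Hist1h1c led in both lines, with 49.8 CPM per kilobase in P248L and 137 in wild-type cells, and Hist1h2bc was next, with 12.1 in P248L and 67.4 in wild-type cells.

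After 5 days in IL-3 most of the histone genes fell, and a small set rose, in both lines. In the P248L line 43 of the 47 tested genes were called, 5 higher and 38 lower, when 71.1% of all tested genes were called, 34.8% higher and 36.2% lower. In the wild-type line 37 were called, 9 higher and 28 lower, when 73.1% of all tested genes were called, 35.7% higher and 37.4% lower. The median log2 fold change of the 47 genes was -3.12 in P248L and -2.18 in wild-type cells, against -0.02 and -0.05 over all tested genes. The 28 genes that fell in the wild-type line all fell in the P248L line too, where they made up 73.7% of the 38. Of the 9 that rose in the wild-type line, 4 also rose in the P248L line (44.4% of the 9 and 80% of the 5). These were Hist1h1c, Hist3h2a, Hist1h2bc and Hist2h3c1.

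**Figure D2:**
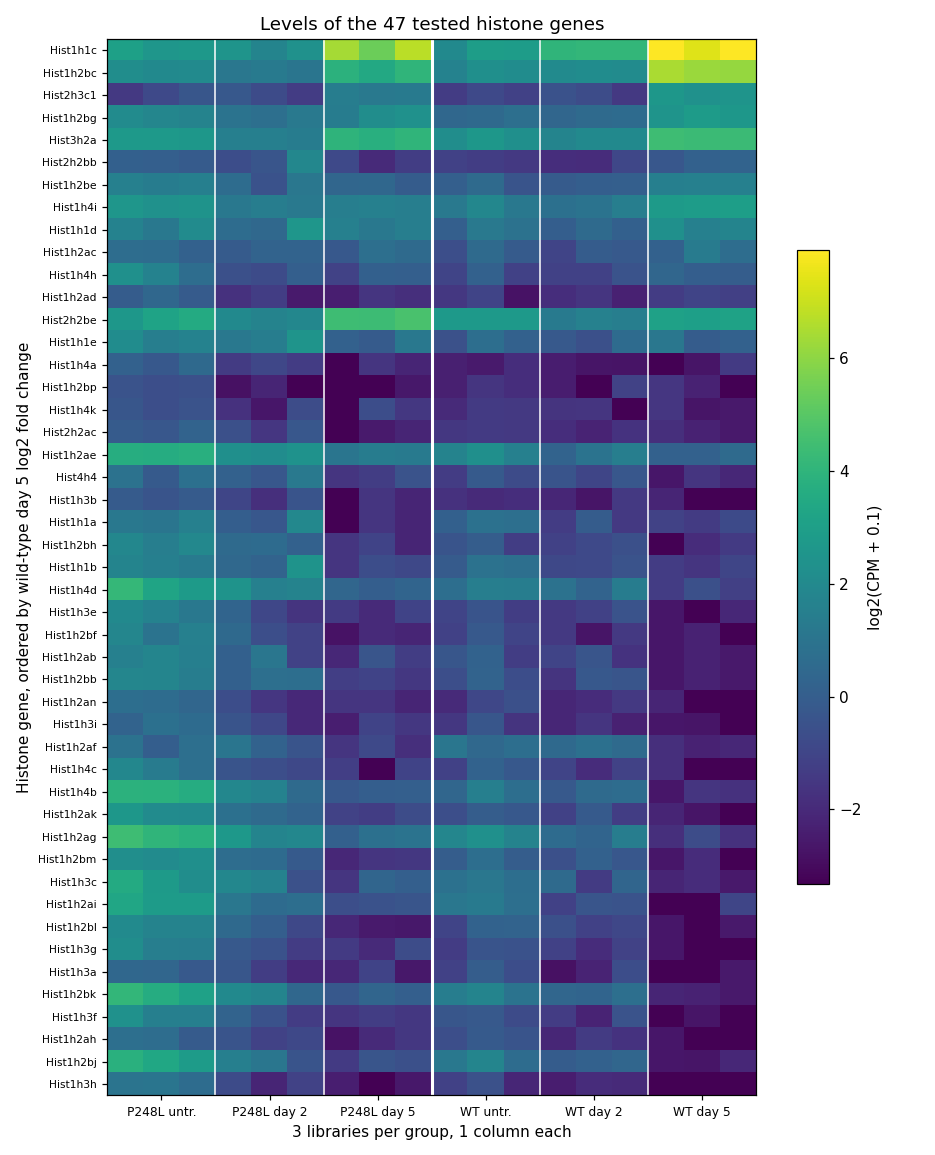
Level of each of the 47 tested histone genes (rows, as log2 of CPM plus 0.1) in the 18 libraries (columns, 3 per group, P248L groups left of wild-type groups), ordered by the wild-type day 5 change. The top rows, led by Hist1h1c and Hist1h2bc, are brightest at day 5, and most rows below are brightest in untreated P248L cells.

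Hist1h1c (chromosome 13, 23738808 to 23740367, plus strand, 1 exon, here and below on GRCm38) encodes a somatic linker histone, H1.2, which binds where DNA enters and leaves the nucleosome. Its level in P248L libraries was 8.37, 5.87 and 6.34 CPM untreated, 5.58, 3.26 and 5.07 CPM at day 2 and 83.3, 41.6 and 108 CPM at day 5. In wild-type libraries it was 3.98, 7.47 and 7.19 CPM untreated, 16.4, 17.4 and 17.4 CPM at day 2 and 241, 165 and 235 CPM at day 5. The day 5 libraries of each line lay above all of its earlier ones, and the wild-type day 5 libraries lay above those of P248L. The rise at day 5 was 3.50 ± 0.31 in P248L (edgeR adjusted p = 1.88e-08) and 5.10 ± 0.33 in wild-type cells (adjusted p = 2.03e-10). It was the sole histone gene to rise at day 2, by 1.45 ± 0.30 in the wild-type line (edgeR adjusted p = 0.000776), where P248L gave -0.56 ± 0.32 (adjusted p = 0.177). The response differed between the lines at both times, by -2.01 ± 0.44 at day 2 and -1.59 ± 0.41 at day 5, P248L minus wild-type (edgeR adjusted p = 0.00609 and 0.00832).

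The other H1 genes behaved differently. Hist1h1a and Hist1h1b, which encode H1.1 and H1.5, fell at day 5 in both lines, at -4.42 ± 0.77 and -2.86 ± 0.56 in P248L and -1.96 ± 0.63 and -2.18 ± 0.62 in wild-type cells (edgeR adjusted p = 5.69e-05, 0.00018, 0.0101 and 0.00413). Hist1h1d, for H1.3, gave -0.25 ± 0.45 in P248L (edgeR adjusted p = 0.635) and rose by 1.13 ± 0.46 in the wild-type line (adjusted p = 0.0331). The wild-type call for Hist1h1d was lost without scaling beyond library size, at an edgeR adjusted p of 0.15, and when untreated library 1 or 3 or day 5 library 1 was left out, at 0.131, 0.0618 and 0.143. Hist1h1e, for H1.4, fell at -1.33 ± 0.45 in P248L (edgeR adjusted p = 0.0136) and gave 0.27 ± 0.50 in the wild-type line (adjusted p = 0.632). That fall was lost without P248L day 5 library 1 or 2, at edgeR adjusted p values of 0.0661 and 0.0582. Hist1h2be and Gm11398 overlap Hist1h1e on the same strand in the annotation, so its reads are uncertain. The testis gene Hist1h1t had a read in 1 library only. At day 2 P248L library 3, the one with much Rn45s, held 5.81 CPM of Hist1h1d and 5.37 CPM of Hist1h1b, against 1.29 to 1.45 and 1.11 to 1.28 CPM in the other P248L day 2 libraries. Without that library Hist1h1a, Hist1h1b and Hist1h1d fell at day 2 in P248L, at -1.44, -1.22 and -1.14 (edgeR adjusted p = 0.0164, 0.00602 and 0.0225), where the fit with it called none of them. The day 2 differences between the lines, P248L minus wild-type, of Hist1h1a and Hist1h1d were lost without it, at 0.85 and 0.35 (edgeR adjusted p = 0.229 and 0.547), against 1.85 and 1.33 with it.

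Hist1h2bc (chromosome 13, 23684199 to 23692908, plus strand, 2 exons), an H2B gene, rose most among the core histone genes in the wild-type line. Its level in P248L libraries was 4.43, 3.87 and 4.10 CPM untreated, 2.11, 2.34 and 1.99 CPM at day 2 and 14.9, 10.8 and 16.3 CPM at day 5. In wild-type libraries it was 3.08, 4.72 and 4.30 CPM untreated, 4.01, 4.25 and 4.13 CPM at day 2 and 89.7, 74.4 and 69.6 CPM at day 5. The day 5 libraries did not overlap between the lines, nor with any earlier library. The change at day 5 was 1.76 ± 0.18 in P248L and 4.26 ± 0.19 in wild-type cells (edgeR adjusted p = 8.50e-08 and 9.09e-13), and the responses differed by -2.50 ± 0.25 (adjusted p = 9.72e-07). At day 2 it fell in P248L, at -0.94 ± 0.20 (edgeR adjusted p = 0.00113), and gave 0.03 ± 0.18 in wild-type cells (adjusted p = 0.931).

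Hist3h2a (chromosome 11, 58954685 to 58956830, plus strand), an H2A gene of the small Hist3 cluster, fell at day 2 and rose at day 5 within each line. P248L libraries held 6.42, 6.36 and 6.08 CPM untreated, 2.77, 2.77 and 2.50 CPM at day 2 and 15.6, 13.4 and 16.2 CPM at day 5. Wild-type libraries held 4.43, 6.00 and 4.70 CPM untreated, 3.22, 3.96 and 3.97 CPM at day 2 and 21.4, 19.8 and 19.9 CPM at day 5. In both lines the 3 times did not overlap. The change at day 2 was -1.23 ± 0.16 in P248L (edgeR adjusted p = 1.18e-05) and -0.45 ± 0.15 in the wild-type line (adjusted p = 0.0255). The wild-type fall of Hist3h2a was lost without untreated library 2 or day 2 library 1, at edgeR adjusted p values of 0.183 and 0.143. The rise at day 5 was 1.26 ± 0.15 in P248L and 2.01 ± 0.15 in wild-type cells (edgeR adjusted p = 4.93e-07 and 1.04e-09). Trim17 overlaps it on the same strand in the annotation, so reads near its end are uncertain.

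Hist2h2be (chromosome 3, 96221119 to 96223738, plus strand), an H2B gene of the Hist2 cluster, rose further in P248L than in wild-type cells. P248L libraries held 6.01, 9.14 and 11.7 CPM untreated, 3.97, 3.20 and 3.60 CPM at day 2 and 21.4, 20.9 and 25.4 CPM at day 5. Wild-type libraries held 6.61, 6.65 and 6.39 CPM untreated, 2.35, 2.98 and 2.72 CPM at day 2 and 8.47, 8.07 and 8.71 CPM at day 5. The day 2 libraries were the lowest in each line, and the P248L day 5 libraries lay above all others. The gene fell at day 2, at -1.30 ± 0.20 in P248L and -1.29 ± 0.20 in wild-type cells (edgeR adjusted p = 7.08e-05 and 5.78e-05). At day 5 it rose by 1.35 ± 0.19 in P248L (edgeR adjusted p = 4.50e-06) and gave 0.36 ± 0.19 in wild-type cells (adjusted p = 0.0994). It was the sole histone gene whose day 5 response was higher in P248L than in wild-type cells, by 0.99 ± 0.27 (edgeR adjusted p = 0.0105).

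The H3 gene Hist2h3c1 (chromosome 3, 96246685 to 96248509, plus strand) held 0.263, 0.459 and 0.705 CPM in untreated P248L libraries, 0.744, 0.493 and 0.294 CPM at day 2 and 2.64, 2.22 and 2.32 CPM at day 5. In wild-type libraries it held 0.298, 0.464 and 0.355 CPM untreated, 0.610, 0.516 and 0.261 CPM at day 2 and 6.15, 5.00 and 5.51 CPM at day 5. Its day 5 libraries stood clear of the earlier ones in both lines, and it rose by 2.41 ± 0.32 in P248L and 3.86 ± 0.32 in wild-type cells (edgeR adjusted p = 3.22e-06 and 4.56e-09). The noncoding gene Gm20634 overlaps it on the same strand. Its near copy Hist2h3c2 was not tested and had 0.548, 0.569 and 0.612 CPM at wild-type day 5 and no read in the other wild-type libraries.

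A further 3 genes rose at day 5 in the wild-type line and fell in the P248L line. Hist1h4i (chromosome 13, 22040636 to 22041362, minus strand), an H4 gene, held 5.82, 5.01 and 5.38 CPM in untreated P248L libraries, 2.19, 2.65 and 2.21 CPM at day 2 and 2.69, 2.84 and 2.70 CPM at day 5. In wild-type libraries it held 2.24, 3.56 and 2.17 CPM untreated, 1.66, 1.84 and 2.66 CPM at day 2 and 6.76, 7.39 and 7.69 CPM at day 5. The untreated and day 5 libraries did not overlap in either line. It changed by -0.98 ± 0.21 in P248L and by 1.44 ± 0.21 in wild-type cells (edgeR adjusted p = 0.00044 and 5.25e-06). Hist1h2be changed by -1.30 ± 0.31 in P248L and 1.49 ± 0.30 in wild-type cells (edgeR adjusted p = 0.00102 and 0.000264), but its annotation overlaps Hist1h1e and Gm11398. Hist2h2bb changed by -1.47 ± 0.65 in P248L and 1.60 ± 0.64 in wild-type cells (edgeR adjusted p = 0.0499 and 0.0319). These calls of Hist2h2bb were weak: without scaling beyond library size the wild-type one had an edgeR adjusted p of 0.0885, leaving out any untreated wild-type library gave 0.0536 to 0.0779, wild-type day 5 library 2 or 3 gave 0.0732 and 0.078, leaving out P248L untreated library 1 or 2 or any P248L day 5 library gave 0.0534 to 0.139 for the P248L one, and leaving out wild-type day 2 library 3 or any wild-type day 5 library gave 0.0505 to 0.0579 for it. Hist1h2bg, an H2B gene, rose by 2.17 ± 0.24 in wild-type cells (edgeR adjusted p = 2.08e-07) and gave 0.13 ± 0.22 in P248L (adjusted p = 0.613), with a difference of responses of -2.03 ± 0.33 (adjusted p = 0.000163).

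**Figure D3:**
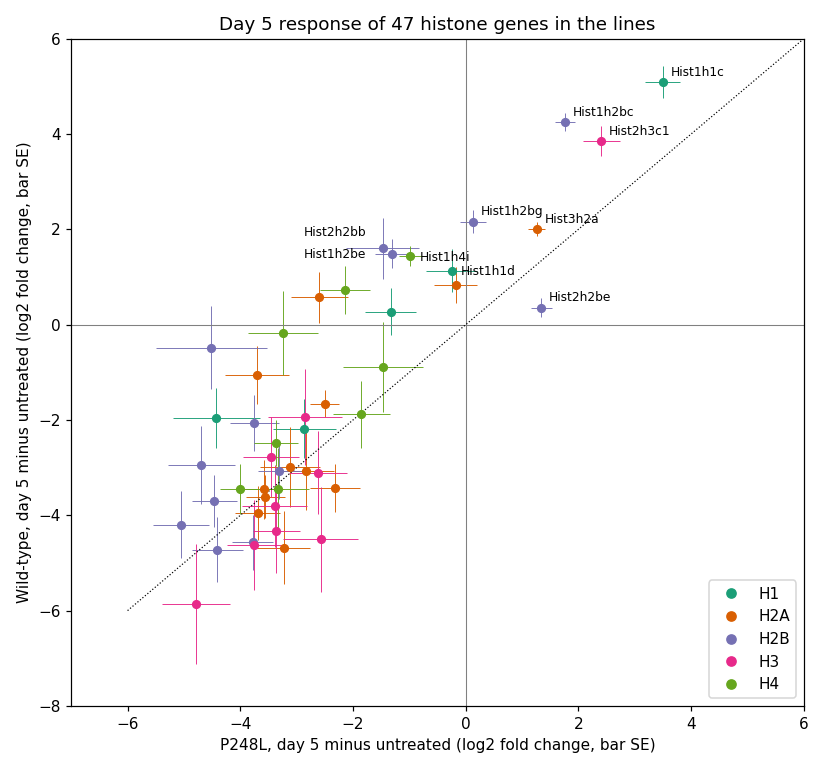
Day 5 response (log2 fold change against untreated cells of the same line) of the 47 tested histone genes in P248L (x axis) and wild-type cells (y axis), coloured by histone type, with SE bars; the dotted line marks equal responses. Hist1h1c lies at 3.50 and 5.10, Hist2h2be lies below the line, and most genes lie in the lower left. The lowest point is Hist1h3h, which had no read at wild-type day 5, so its place is a fitted value.

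The genes that fell included all core types. In the P248L line 10 of 12 tested H2A genes, 10 of 13 H2B genes, 8 of 9 H3 genes and 7 of 8 H4 genes fell at day 5. In the wild-type line these counts were 8, 7, 7 and 4. Hist1h2ag (chromosome 13, 22042460 to 22042944, minus strand), an H2A gene, held 21.5, 16.2 and 13.8 CPM in untreated P248L libraries, 6.16, 3.26 and 3.53 CPM at day 2 and 0.973, 1.69 and 1.82 CPM at day 5. In wild-type libraries it held 3.43, 4.84 and 3.11 CPM untreated, 1.44, 1.15 and 2.61 CPM at day 2 and 0.183, 0.512 and 0.204 CPM at day 5. The times did not overlap within either line. It fell at day 5, at -3.55 ± 0.35 in P248L and -3.61 ± 0.46 in wild-type cells (edgeR adjusted p = 6.62e-08 and 1.34e-06).

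The H2B gene Hist1h2bk (chromosome 13, 22035870 to 22036345, plus strand) held 17.2, 12.5 and 8.52 CPM in untreated P248L libraries, 3.97, 3.26 and 1.25 CPM at day 2 and 0.741, 1.15 and 0.941 CPM at day 5. Wild-type libraries held 2.59, 3.25 and 1.86 CPM untreated, 1.22, 1.15 and 1.62 CPM at day 2 and 0.122, 0.114 and 0.068 CPM at day 5. The groups within each line did not overlap, and the gene fell at day 5, at -3.78 ± 0.37 in P248L and -4.57 ± 0.57 in wild-type cells (edgeR adjusted p = 5.69e-08 and 1.11e-06). The H4 gene Hist1h4b (chromosome 13, 23757013 to 23757409, plus strand) held 14.9, 14.2 and 12.4 CPM in untreated P248L libraries, 3.56, 3.08 and 1.40 CPM at day 2 and 0.741, 0.921 and 0.941 CPM at day 5. Wild-type libraries held 1.19, 2.75 and 1.55 CPM untreated, 0.784, 1.38 and 1.46 CPM at day 2 and 0.0609, 0.227 and 0.204 CPM at day 5. Day 5 lay below the untreated libraries in both lines, while untreated and day 2 libraries of the wild-type line overlapped. The gene fell at day 5, at -4.01 ± 0.36 in P248L and -3.45 ± 0.52 in wild-type cells (edgeR adjusted p = 1.63e-08 and 9.87e-06).

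Several H3 genes were close to 0 reads at day 5. Hist1h3h had no read over the 3 wild-type day 5 libraries and 25 in untreated ones, which makes it at least 5.92-fold lower at day 5, with a floor of 3 reads over the group. In P248L cells Hist1h3h had 3 reads at day 5 and 133 untreated, a ratio of 30.8-fold lower (95% counting interval 10.3 to 151). Hist1h3f had 1 read at wild-type day 5 and 45 untreated, 32.0-fold lower (interval 5.46 to 1291). These intervals cover counting error only.

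Of the 9 genes that rose at day 5 in the wild-type line, 8 had a long annotated end, as had 7 of the 28 that fell. GENCODE M21 gives 27 of the 68 genes more than 130 bases after the stop codon, here called a long end, and 40 a short end. This limit was set in a gap, from 114 to 154 bases, after the values were seen. Short ends include genes annotated with 0 to 2 bases, such as Hist1h2ai and Hist1h2ah, whose 3′ end may be missing from the annotation. The parting of short from long ends therefore mixes short with possibly unannotated ends. At day 5 in the P248L line 5 of 19 tested genes with a long end rose and 11 fell, with a median log2 fold change of -1.30. Of the 28 with a short end 27 were called, all lower, with a median of -3.37. In the wild-type line 8 of the 19 with a long end rose and 7 fell, with a median of 0.36, and 1 of the 28 with a short end, Hist2h2bb, rose and 21 fell, with a median of -3.27 (-3.09 with Hist1h3h at its bound). Over all tested genes 34.8% rose and 36.2% fell in P248L, and 35.7% rose and 37.4% fell in wild-type cells. The wild-type counts for long ends were therefore near the shares over all genes. A stem-loop was annotated in 6 of the 9 genes that rose in wild-type cells and in 17 of the 28 that fell. A polyadenylation signal, either AATAAA or its common variant that reads ATTAAA, was present in the last 50 annotated bases of 5 of the 9 and 2 of the 28. Genes annotated with 0 to 2 bases after the stop codon could hold neither, so their lack of both was fixed by the annotation. Hist1h1b and Hist1h2ah, which fell, and Hist2h2bb, which rose, are among them. Summed over genes with a short end, the level was 118 ± 25.2 CPM untreated, 35.1 ± 5.48 CPM at day 2 and 10.6 ± 3.15 CPM at day 5 in P248L, and 28.7 ± 7.28, 15.1 ± 2.23 and 5.22 ± 0.0929 CPM in wild-type cells. Genes with a long end summed to 86.5 ± 10.1 CPM untreated, 40.6 ± 6.60 CPM at day 2 and 150 ± 41.2 CPM at day 5 in P248L, and to 40.2 ± 8.30, 41.2 ± 3.56 and 352 ± 48.1 CPM in wild-type cells. Without Hist1h1c these sums were 79.6 ± 8.82, 36.0 ± 5.63 and 72.4 ± 7.93 CPM in P248L, so the P248L rise above untreated cells came from Hist1h1c. In wild-type cells they were 34.0 ± 6.71, 24.1 ± 3.10 and 138 ± 11.8 CPM without it. Which 3′ end was used in each library was not tested, since the files hold reads per gene.

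**Figure D4:**
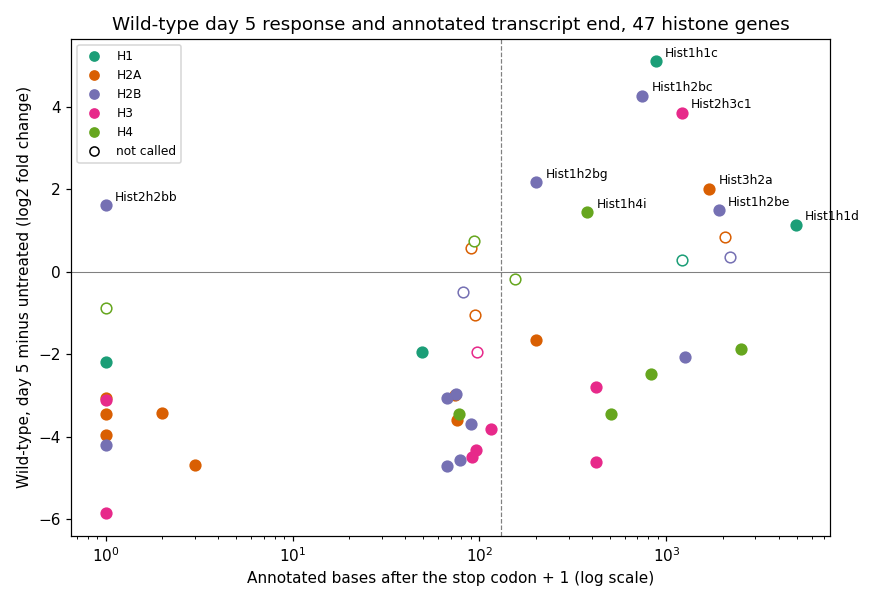
Annotated bases after the stop codon plus 1 (x axis, log scale) against the wild-type day 5 log2 fold change (y axis) for the 47 tested histone genes, coloured by type, open where not called; the dashed line parts short from long ends. Of the 9 genes that rose, 8 lie right of the line, and most genes left of it fell. Genes with 0 annotated bases after the stop codon, whose annotation may be incomplete, lie at the left edge.

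Neighbouring genes did not always move together. Many H2A and H2B genes lie head to head, and 13 such pairs had starts within 500 bases. In the pair Hist1h2ag and Hist1h2bj, with starts 269 bases apart, both genes fell at day 5 in both lines, Hist1h2bj at -4.41 ± 0.46 in P248L and -4.72 ± 0.67 in wild-type cells (edgeR adjusted p = 1.21e-07 and 5.46e-06). In the pair Hist1h2ae and Hist1h2bg, with starts 175 bases apart, Hist1h2ae fell, at -2.50 ± 0.25 in P248L and -1.66 ± 0.28 in wild-type cells (edgeR adjusted p = 8.29e-08 and 3.84e-05), while Hist1h2bg rose in wild-type cells as given above. In the pair Hist2h2ac and Hist2h2be, 238 bases apart, Hist2h2ac fell at day 5 in P248L, at -3.70 ± 0.57 (edgeR adjusted p = 1.47e-05), where Hist2h2be rose. The promoter of Hist1h2bg is shown because Hist1h2ae starts inside it in the other direction. It is chr13:23571150-23571449 on the plus strand of GRCm38.p6, from 250 bases before to 50 after the RefSeq start, and capitals mark matches, on either strand, to the CCAAT box (letters CCAAT), to a TATA box with the letters TATAAA and to the octamer, which reads ATTTGCAT.
Hist1h2bg promoter: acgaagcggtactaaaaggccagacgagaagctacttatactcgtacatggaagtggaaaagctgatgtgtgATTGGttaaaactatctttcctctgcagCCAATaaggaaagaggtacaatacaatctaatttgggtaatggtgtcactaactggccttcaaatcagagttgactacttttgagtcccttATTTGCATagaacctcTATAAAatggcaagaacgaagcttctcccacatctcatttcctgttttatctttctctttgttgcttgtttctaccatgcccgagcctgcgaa
Of the 68 genes, 61 had a RefSeq promoter in the table, and Hist1h2be had a second one. The CCAAT box was present in 100% of H1, H2A, H2B and H3 promoters and in 3 of 12 H4 promoters, against 37.4% of all 32851 promoters of the same length. The octamer was present in 7 of 17 H2A and 7 of 17 H2B promoters, in 0 of the H1, H3 and H4 promoters and in 1.74% of all promoters. The TATA box was present in all types, in 4 of 6 H1, 11 of 17 H2A, 8 of 17 H2B, 4 of 10 H3 and 8 of 12 H4 promoters. Of all promoters 13.6% held it. Promoters of a head-to-head pair share bases, and matches count on either strand, so H2A and H2B counts can hold the same sites. The matches do not overlap each other in the promoter shown.

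At day 2 most histone genes had fallen in P248L and fewer in the wild-type line. In P248L 33 of 47 were called, all lower, when 40.0% of all tested genes were called, 18.5% higher and 21.5% lower, and the median was -1.42. In the wild-type line 11 were called, 1 higher and 10 lower, when 43.9% of all tested genes were called, 22.1% higher and 21.8% lower, and the median was -0.63. The 10 lower were 21.3% of the 47, near the share over all tested genes. The wild-type count of called genes, 11, became 5 without untreated library 2 and 5 without day 2 library 1. Of the wild-type falls, 8 of 10 were shared with P248L (80% of the 10 and 24.2% of the 33). H2B genes led in P248L, with 12 of 13 falling. Of 5 H1 genes 0 were called there by edgeR, 0 had an unadjusted p under 0.05, and DESeq2 called 0, but 3 fell without P248L day 2 library 3, as given above. The difference of responses itself, P248L minus wild-type, passed the threshold for 4 of 47 genes, all lower, when 9.55% of all tested genes passed, 3.05% higher and 6.50% lower. They were Hist1h1c, Hist3h2a, Hist1h2bc and Hist1h4b, and the calls of all but Hist1h1c were lost in the fit of only the groups compared, at edgeR adjusted p values of 0.091, 0.0512 and 0.0704. The count became 1 without wild-type untreated library 1 or 3, wild-type day 2 library 2 or 3, or P248L untreated library 2, and 7 without wild-type untreated library 2 or P248L untreated library 3.

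At day 5 the difference of responses passed for 12 of 47 genes, 1 higher (Hist2h2be) and 11 lower, when 26.9% of all tested genes passed, 14.7% higher and 12.2% lower. Among the 11 lower were Hist1h2ad at -3.17 ± 0.76, Hist1h4h at -2.87 ± 0.68 and Hist1h4i at -2.42 ± 0.29 (edgeR adjusted p = 0.00462, 0.00432 and 9.52e-06). Hist1h2ad and Hist1h4h fell in P248L, at -2.60 ± 0.50 and -2.14 ± 0.45, and gave 0.58 ± 0.54 and 0.73 ± 0.50 in wild-type cells (edgeR adjusted p = 0.000164, 0.000372, 0.346 and 0.199). As Hist1h2ad passed the filter only through the untreated P248L libraries, its fall in P248L was favoured by the filter. The day 2 and day 5 responses of a line share its untreated libraries. Markers of mast cells and basophils, 4 genes, summed to 28.9 to 50.8 CPM in P248L and 2026 to 2998 CPM in wild-type libraries at day 5, and 1 of the 2 tested was lower in P248L. Progenitor and myeloid markers summed to 17402 to 22654 CPM in P248L and 35281 to 42923 CPM in wild-type libraries, of which Lyz2 alone made 13652 to 18802 and 31758 to 39883 CPM. By gene, 4 of these 9 markers were higher in P248L and 1 lower, with a median log2 difference of 0.74. Their part in the difference of histone responses was not tested.

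Before IL-3 the lines already differed. In untreated P248L cells 33 of 47 histone genes differed from untreated wild-type cells, all higher, when 21.7% of all tested genes differed, 10.3% higher and 11.3% lower, and the median difference was 1.82 against -0.01 over all tested genes. The 33 include genes that passed the filter only through the untreated P248L libraries, for which the direction was favoured in advance. Hist1h2ad held 0.833 to 1.25 CPM there and at most 0.398 CPM in any other library. Hist1h4a held 0.754 to 1.34 CPM there and at most 0.431 CPM elsewhere. The genes that were higher included 9 of 12 H2A, 9 of 13 H2B, 7 of 9 H3 and 7 of 8 H4 genes, but 1 of 5 H1 genes. Hist1h4b was higher by 2.90 ± 0.31, Hist1h2ak by 2.69 ± 0.31 and Hist1h3e by 2.72 ± 0.42 (edgeR adjusted p = 2.15e-06, 4.53e-06 and 0.000151). The P248L libraries lay above the wild-type ones without overlap for Hist1h4b, at 12.4 to 14.9 against 1.19 to 2.75 CPM, and for Hist1h2ak, at 4.03 to 6.16 against 0.547 to 0.890 CPM. The genes that rose at day 5 in both lines were not called between the untreated lines, Hist1h1c at 0.14 ± 0.31, Hist1h2bc at 0.03 ± 0.18, Hist3h2a at 0.32 ± 0.15 and Hist2h3c1 at 0.25 ± 0.40 (edgeR adjusted p = 0.769, 0.937, 0.131 and 0.681). Hist1h1e, the H1 gene that was higher, by 1.62 ± 0.44 (edgeR adjusted p = 0.0145), was lost without wild-type untreated library 1 or 3 or P248L untreated library 1, at adjusted p values of 0.0745, 0.0569 and 0.0593. Its overlap with Hist1h2be and Gm11398, given above, applies here too. P248L untreated library 1 had the highest histone sum, 243 CPM, against 191 and 179 CPM in the other 2.

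Other values of the untreated libraries are given beside this difference. Multimapping reads made up 17.2 to 21.3% of untreated P248L libraries and 14.98 to 17.1% of untreated wild-type ones. Short RNAs (small nucleolar, Cajal body, spliceosomal and similar RNAs, Rn45s left out) summed to 137 to 159 CPM in untreated P248L and 102 to 122 CPM in untreated wild-type libraries, and 8 of 63 tested were higher and 1 lower, when 10.3% of all tested genes were higher and 11.3% lower. Hepatocyte markers, 6 genes, summed to 97.5 to 178 CPM in untreated P248L and 26.3 to 27.4 CPM in untreated wild-type libraries, nearly all from Hnf4a, while Alb and Ttr had no read. The part of these in the histone difference was not tested.

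At day 2 and day 5 histone genes differed between the lines in both directions. At day 2, 20 of 47 genes differed, 17 higher in P248L and 3 lower (Hist1h1c, Hist3h2a and Hist1h2bc), when 35.8% of all tested genes differed, 15.5% higher and 20.3% lower. The 17 and the 3 were 36.2% and 6.38% of the 47. The count of 20 became 12 without wild-type day 2 library 1 and 12 in the fit of only the groups compared. The call for Hist3h2a was lost in 8 of 18 fits without 1 library, and that for Hist1h1d, among the 17, was lost without P248L day 2 library 3, at an edgeR adjusted p of 0.547, and in 9 others. At day 5, 19 differed, 12 higher in P248L and 7 lower, when 45.5% of all tested genes differed, 22.8% higher and 22.7% lower. The 19, 12 and 7 were 40.4%, 25.5% and 14.9% of the 47. The count of 19 therefore did not stand above the share over all genes. Those higher at day 5 included Hist1h3g, at 0.278, 0.153 and 0.502 CPM in P248L and 0.0609, 0 and 0 CPM in wild-type libraries, and Hist2h2be, higher by 1.42 ± 0.19 (edgeR adjusted p = 7.66e-06). Of the 12, 11 had also been higher in untreated cells (91.7% of the 12 and 33.3% of the 33), and the exception was Hist2h2be. The 7 lower genes were Hist1h1c, Hist3h2a, Hist1h2bc, Hist1h2be, Hist1h2bg, Hist2h3c1 and Hist1h4i, all among the 9 that rose in wild-type cells. Both comparisons use the same wild-type day 5 libraries, so this overlap is not independent. The difference in Hist1h2bc was -2.47 ± 0.17 (edgeR adjusted p = 2.40e-09).

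Most genes of the machinery that makes and processes histone messages fell at day 5. Of 22 genes for histone transcription and 3′ processing, 2 rose and 12 fell in P248L and 3 rose and 17 fell in wild-type cells at day 5. Of all tested genes 34.8% rose and 36.2% fell in P248L and 35.7% rose and 37.4% fell in wild-type cells, shares that also apply to the other day 5 lists below. Slbp, for the stem-loop binding protein, held 83.1, 106 and 97.9 CPM in untreated P248L libraries, 107, 118 and 148 CPM at day 2 and 49.3, 52.5 and 51.7 CPM at day 5. In wild-type libraries it held 97.4, 103 and 99.3 CPM untreated, 98.8, 98.0 and 99.4 CPM at day 2 and 29.97, 33.3 and 36.9 CPM at day 5. Day 5 was lowest in each line. Slbp fell at day 5, at -0.90 ± 0.13 in P248L and -1.58 ± 0.13 in wild-type cells (edgeR adjusted p = 4.93e-06 and 4.00e-09). The untreated lines overlapped, at -0.06 ± 0.12 (edgeR adjusted p = 0.751). Npat, for the coactivator, fell at day 5, at -0.84 ± 0.18 in P248L and -1.30 ± 0.19 in wild-type cells (edgeR adjusted p = 0.000556 and 5.54e-06). Among the genes that rose were Zfp473, a U7 snRNP-associated zinc finger gene, by 1.08 ± 0.22 in P248L and 2.00 ± 0.21 in wild-type cells, and Zcchc6, a uridylyltransferase gene, by 1.86 ± 0.18 and 1.72 ± 0.17 (edgeR adjusted p = 0.000242, 8.93e-08, 3.78e-08 and 7.20e-08). Between untreated P248L and wild-type cells 1 of the 22 differed, when 21.7% of all tested genes did: Zfp473, at -0.65 ± 0.22 (edgeR adjusted p = 0.0384).

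Of 23 histone chaperone genes, 1 rose and 19 fell in P248L and 1 rose and 18 fell in wild-type cells at day 5, when 36.2% and 37.4% of all tested genes fell. Chaf1a, for the large subunit of the chromatin assembly factor CAF-1, fell, at -1.76 ± 0.13 in P248L and -2.54 ± 0.13 in wild-type cells (edgeR adjusted p = 1.33e-09 and 1.10e-11). Daxx, a chaperone of H3.3, changed by -0.39 ± 0.13 in P248L and 1.10 ± 0.13 in wild-type cells (edgeR adjusted p = 0.013 and 6.69e-07). Between untreated P248L and wild-type cells 4 of the 23 differed, all higher, when 21.7% of all tested genes differed.

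Replication-independent histone genes, most of whose messages carry poly(A) tails, gave 10 tested of 14. At day 5, 2 rose and 6 fell in P248L and 2 rose and 5 fell in wild-type cells, when 34.8% of all tested genes rose and 36.2% fell in P248L and 35.7% rose and 37.4% fell in wild-type cells. The linker histone gene H1f0, known from resting and differentiated cells, held 47.9, 45.4 and 44.6 CPM in untreated P248L libraries, 36.9, 36.6 and 34.5 CPM at day 2 and 174, 169 and 194 CPM at day 5. Wild-type libraries held 60.5, 87.8 and 71.4 CPM untreated, 79.0, 77.3 and 78.0 CPM at day 2 and 102, 102 and 115 CPM at day 5. Its day 5 libraries were the highest in each line. It rose by 1.96 ± 0.12 in P248L and 0.54 ± 0.12 in wild-type cells (edgeR adjusted p = 1.73e-10 and 0.000588), and the responses differed by 1.42 ± 0.17 (adjusted p = 7.89e-06), the opposite sign to Hist1h1c. H2afz, for H2A.Z, fell, at -1.15 ± 0.17 in P248L and -1.81 ± 0.17 in wild-type cells (edgeR adjusted p = 7.20e-06 and 2.45e-08).

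Nearly all S phase genes fell at day 5, and few differed between the untreated lines. Of 22, 21 were called in P248L and 22 in wild-type cells at day 5, all lower, when 36.2% and 37.4% of all tested genes were lower, with medians of -1.86 and -2.56. At day 2, when 33 histone genes had fallen in P248L, 5 of these 22 rose and 4 fell there, against 18.5% and 21.5% of all tested genes. Between untreated P248L and wild-type cells 2 of the 22 differed, both higher, when 21.7% of all tested genes differed, with a median of 0.13. Mcm5, for a subunit of the replicative helicase, held 368, 401 and 358 CPM in untreated P248L and 340, 371 and 347 CPM in untreated wild-type libraries, overlapping, with a difference of 0.09 ± 0.13 (edgeR adjusted p = 0.621). At day 5 all 22 were higher in P248L than in wild-type cells, when 22.8% of all tested genes were, with a median of 0.79. Short RNAs moved the same way at day 5, with 3 higher and 42 lower of 63 in P248L and 48 called in wild-type cells, all lower, when 36.2% and 37.4% of all tested genes were lower, and summed to 54.6 to 78.8 CPM in P248L and 29.7 to 42.6 CPM in wild-type libraries. The part of library preparation in the falls of short or tail-less messages was not tested.

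**Figure D5:**
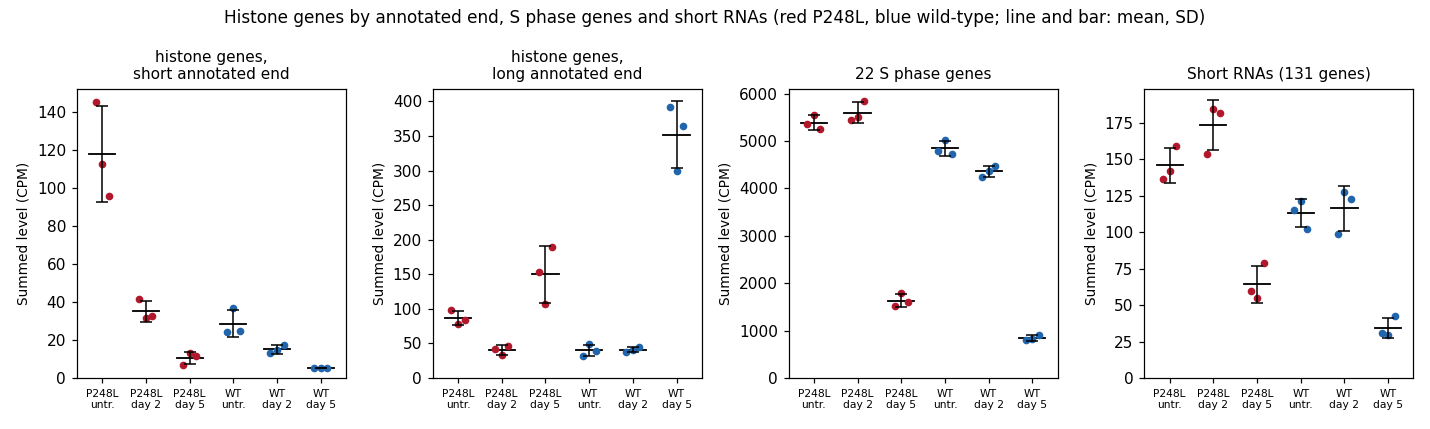
Summed level (CPM, y axes from 0) of histone genes with a short annotated end, histone genes with a long annotated end, S phase genes and short RNAs without Rn45s, by group on the x axis, with P248L groups in red left of wild-type groups in blue; points are libraries, and lines and bars are the mean and SD of 3. The short-end histone sum stands apart in untreated P248L cells, at 118 ± 25.2 CPM, while the S phase sum was 5387 ± 157 CPM in untreated P248L and 4844 ± 159 CPM in untreated wild-type cells. The long-end sum holds Hist1h1c, without which it was 79.6 ± 8.82 CPM untreated and 72.4 ± 7.93 CPM at day 5 in P248L.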

How the data were processed

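The deposited files hold raw read counts per gene, 1 file per library, for both strands and each strand; per the submitters' processing notes, STAR and the mm10 build were used. Tool versions, gene annotation and RNA selection were not found in these sources. The column of the strand with most reads was used. Reads in no gene were 27.9 to 38.1% of a library, outside the library sizes. Genes passing filterByExpr (minimum count 10, 11942 genes) were scaled by TMM and fitted over all 18 libraries with 1 mean per group by edgeR 4.0.16 (R 4.3.3), and 9 contrasts were adjusted by Benjamini-Hochberg over all genes. SE were taken from the F statistic and the log2 fold change. The common biological coefficient of variation was 0.17. The procedure was tested on simulated data. Chi-square per degree of freedom between replicate libraries was 4.92 to 204, so none was counted as a duplicate.

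The histone genes and the companion lists (histone transcription and processing, chaperones, replication-independent histones, S phase, short RNAs, cell type markers) were chosen with earlier results of these data known. Named histone genes are the 3 of highest mean CPM per type, the 5 largest rises and 5 largest falls among called genes per comparison, and genes called in both directions within a line. Named companion genes were listed, or were of the smallest adjusted p. Other members named were chosen after their values were seen: Hist1h1t, Hist2h3c2, Hist3h2bb-ps and those in divergent pairs.

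Counts at 0 reads use a floor of 3 reads over a group. Transcript features come from GENCODE M21 (GRCm38) and promoters from RefSeq (GRCm38.p6), with 68 of 68 genes matched. Replicate numbers paired samples in P248L day 2 against untreated only, where same-number pairs correlated at 0.46, 0.175 and 0.348; this comes from the data, not the labels. Alternatives were DESeq2 1.42.0, limma-voom (limma 3.58.1), other scaling, filters, strands and library sets, a replicate block, and a length and GC trend. Figures used matplotlib.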

Additional observations from a re-analysis of the deposited data

Results flagged for a closer look

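At day 2 the response to IL-3 differed between the lines for 4 histone genes by edgeR's test of the difference, P248L minus wild-type on the log2 scale, or 4 of 47, when 9.55% of all tested genes differed. The differences were -2.01 ± 0.44 for Hist1h1c (-0.56 in P248L and 1.45 in wild-type cells), -0.78 ± 0.22 for Hist3h2a, -0.97 ± 0.27 for Hist1h2bc and -1.70 ± 0.47 for Hist1h4b, with edgeR adjusted p values of 0.00609, 0.0328, 0.0297 and 0.0279.

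At day 5 the response differed for 12 of 47, when 26.9% of all tested genes differed, so neither count, with both directions together, stands above the share over all genes. By direction, 23.4% of the 47 were lower and 2.13% higher at day 5, against 12.2% and 14.7% of all tested genes. Hist1h1c gave -1.59, Hist3h2a -0.75, Hist1h2bc -2.50, Hist1h2bg -2.03, Hist2h3c1 -1.45 and Hist1h4i -2.42. Hist1h2be gave -2.80 and Hist2h2bb -3.08, with opposite directions in the lines. Hist1h2ad gave -3.17, Hist1h4h -2.87 and Hist2h2ac -2.65, and Hist2h2be gave 0.99. The call for Hist2h2ac had an edgeR adjusted p of 0.0493 and was lost in 14 of the 18 fits that left out 1 library and in 6 of 11 other alternatives. That for Hist2h3c1, at 0.0329, was lost in 7 of 18 and 3 of 12. That for Hist3h2a was lost without scaling beyond library size, at 0.0674.

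Reads on the strand opposite to the histone genes, which were left out of the counts tested and entered only the alternative that counts both strands, averaged 3.17 CPM (2.62 to 3.54) at wild-type day 5, above the 0.588 CPM (0.348 to 0.929) of untreated wild-type libraries. As a share of the reads of both strands they were 0.835 to 0.947% at wild-type day 5 and 0.610 to 1.07% in untreated wild-type libraries. In P248L day 2 library 3, which held the most Rn45s, the share was 4.01%.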

How the results depend on the processing

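For the 35 named histone genes in 9 comparisons, of the results under alternatives 8994 kept their side of the threshold, 142 gained a call and 241 lost one. No result that was called in either fit turned its direction. Direction was not compared where neither fit called the gene. The number of called genes kept within 1.5 times of the reported one except as follows. With only the groups compared it was 12 for P248L against wild-type at day 2 and 1 for the difference of responses at day 2, and that difference gave 2 without P248L untreated library 1 and day 2 library 3, and 2 with the replicate block and the length and GC trend removed. Leaving out 1 library at a time gave 5 to 11 (wild-type day 2), 36 to 39 (wild-type day 5), 32 to 36 (P248L day 2), 42 to 45 (P248L day 5), 30 to 39, 12 to 24 and 14 to 21 (between lines untreated, at day 2 and at day 5), and 1 to 7 and 10 to 15 (difference of responses at day 2 and day 5). The replicate block gave 33 for P248L day 2, also with these 2 groups alone (an alternative added after seeing the data), and changed no count beyond 1.5 times. By summed level at wild-type day 5, H2A was 25.7 CPM and H4 10.1 CPM with DESeq2 size factors, H2A 25.0 CPM with both strands, and H2A 20.8, H2B 82.5, H3 5.73 and H4 8.16 CPM with no scaling beyond library size, which gave H2A 20.6 CPM at P248L day 5. The cause was not tested. Length and GC were known for 90.6% of tested genes. Where a group held 3 reads or fewer, as for Hist1h3h, Hist1h3f and Hist1h4c at wild-type day 5, a fall has only a bound or a wide counting interval.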
